A study of Mus musculus with 8 samples.

Results

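The 4 globin genes described here, Hba-a1, Hba-a2, Hbb-bs and Hbb-bt, were taken by name from the 19065 genes measured in every library, and together they made up 279041 of 1160832 UMIs (unique molecular identifiers, each standing for 1 counted RNA molecule), or 24.04%. The libraries came from the colon of 8 C57BL/6 mice, 1 library per mouse, 4 from mice that ate fish oil with pectin and 4 from mice that ate corn oil with cellulose, both for 3 weeks. Each library was made from 2 sections of 50 µm of a formalin-fixed, paraffin-embedded colon roll with a fixed-RNA kit that reads each gene through gene-specific probes in droplets. The sample titles name colonocytes while the tissue is given as colon, no sort or gate is described, and no age or sex is given. The p-values measure the spread between these mice.

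Globins are the protein chains of haemoglobin, the oxygen carrier of red blood cells, in which a pair of alpha chains and a pair of beta chains each hold a haem group. In the adult mouse the alpha chains come from Hba-a1 and Hba-a2, a duplicated pair, and the beta chains of C57BL/6 mice come from Hbb-bs and Hbb-bt, another duplicated pair. Circulating mammalian red cells have no nucleus, and young ones (reticulocytes) still hold globin RNA made in the bone marrow. Blood in a vessel of the colon therefore carries these RNAs into the tissue. Whether cells of the colon itself also made globin RNA was not tested.

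In the GRCm38 annotation, looked up by gene ID, the alpha pair lies on the plus strand of chromosome 11, with Hba-a1 at 32283511 to 32284465 and Hba-a2 at 32296489 to 32297298. The beta pair lies on the minus strand of chromosome 7, with Hbb-bs at 103826534 to 103828096 and Hbb-bt at 103812524 to 103813996. The coding sequences within each pair differ by 1 base, which bears on how far any of the counts below can be split between copies. Hba-a1 and Hba-a2 differ over 429 coding bases only at C381T, and Hbb-bs and Hbb-bt differ over 444 coding bases only at C417T, with positions counted from the first base of the start codon and the first gene of each pair giving the first letter. The 51 coding bases around each difference, from GENCODE M21 transcripts, are shown here with the differing base in capitals, positions 356 to 406 for the alpha pair and 392 to 442 for the beta pair:
Hba-a1: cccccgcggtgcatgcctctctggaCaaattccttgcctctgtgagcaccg
Hba-a2: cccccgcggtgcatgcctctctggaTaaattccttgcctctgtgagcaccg
Hbb-bs: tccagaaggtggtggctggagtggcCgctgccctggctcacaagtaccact
Hbb-bt: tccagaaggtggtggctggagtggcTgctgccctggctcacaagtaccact
Past the stop codon the pairs part ways. All 74 of 74 compared 3′ untranslated bases were equal in the alpha pair, against 95 of 132 (72.0%) in the beta pair. The positions of the kit's probes are not given in the sources used here. The split of alpha UMIs between Hba-a1 and Hba-a2, and of beta UMIs between Hbb-bs and Hbb-bt, is therefore uncertain. A UMI given to the other copy leaves the sum of its pair unchanged. Whether UMIs were lost from either pair is not known.

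The upstream sequences are shown because the members lie in the same barcodes, and Hba-a2, Hbb-bs and Hbb-bt followed each other over the mice, as described below. These are the 250 bases before each RefSeq start (GRCm38.p6, all 4 members matched) at chr11:32283422-32283671 for Hba-a1, chr7:103827929-103828178 for Hbb-bs and chr7:103813924-103814173 for Hbb-bt, each read on its gene's strand. The gene bounds given above begin upstream of these RefSeq starts, so part of each printed window lies inside them. Capitals mark the matches of 4 letter strings searched on both strands, which are textbook promoter elements of red cell genes and of genes in general. GATAAG is the core bound by factors such as Gata1, CACCC is the core bound by factors such as Klf1, CCAAT is the core bound by general upstream factors, and TATAA is the core element close to the start of transcription:
Hba-a1: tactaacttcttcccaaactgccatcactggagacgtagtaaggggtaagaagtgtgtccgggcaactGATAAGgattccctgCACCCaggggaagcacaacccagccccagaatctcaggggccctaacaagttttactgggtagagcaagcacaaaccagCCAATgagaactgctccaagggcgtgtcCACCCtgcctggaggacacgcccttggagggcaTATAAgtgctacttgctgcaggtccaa
Hbb-bs: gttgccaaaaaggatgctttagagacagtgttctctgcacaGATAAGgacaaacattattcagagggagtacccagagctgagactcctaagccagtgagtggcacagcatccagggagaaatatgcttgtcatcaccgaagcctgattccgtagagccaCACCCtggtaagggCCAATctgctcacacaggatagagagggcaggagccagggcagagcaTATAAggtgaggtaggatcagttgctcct
Hbb-bt: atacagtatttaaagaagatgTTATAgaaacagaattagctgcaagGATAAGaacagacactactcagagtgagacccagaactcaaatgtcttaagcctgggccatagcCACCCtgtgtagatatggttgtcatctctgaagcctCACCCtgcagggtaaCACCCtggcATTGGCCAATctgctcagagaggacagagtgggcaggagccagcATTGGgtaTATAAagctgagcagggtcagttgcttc
Hba-a2 carried the same letters as Hba-a1 over all 247 bases compared and is not printed again, whereas the beta pair shared 185 of 255 bases (72.5%). GATAAG stood once in each of the 4 promoters, against 6.55% of 32851 mouse promoters of the same length with at least 1. CACCC was found in 52.0%, CCAAT in 33.9% and TATAA in 22.8% of all promoters, and 0.29% of them (95) held all 4 strings, as each member did. Hbb-bt had 3 copies of CACCC and 3 of CCAAT where Hbb-bs had 1 of each, and no string overlapped another. The strings were picked with these sequences in view, and a match is a description of letters, not a site.

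A library held between 34758 and 245476 UMIs in 106 to 5180 barcodes. The smallest barcode kept in a mouse had 348 UMIs in fish oil/pectin mouse 4 and 332 UMIs in corn oil/cellulose mouse 3, and as few as 18 UMIs in corn oil/cellulose mouse 1. Each of the 4 sample barcodes of the kit was used in 2 libraries. Over 28 pairs of libraries 213 droplet barcodes were shared. The labels give no pools, so 2 pools of 4 libraries were inferred as the split, of 8 that keep equal sample barcodes apart, with the most shared droplets inside (189 of 213, against 137 for the next best). They put fish oil/pectin mouse 1 with corn oil/cellulose mice 1, 2 and 3 (pool 1), and fish oil/pectin mice 2, 3 and 4 with corn oil/cellulose mouse 4 (pool 2), so that pool and diet are partly confounded. Corn oil/cellulose mouse 3 stood apart in having 7 globin UMIs among 81400. The main diet differences it enters are given with and without it, while those under other minimums and settings are mostly given with it only.

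Hbb-bs, the major adult beta gene by these counts, was the most abundant gene of the series with 149981 UMIs. Its share of UMIs was 18.9%, 18.02%, 28.9% and 3.41% in fish oil/pectin mice 1 to 4, and 3.07%, 22.1%, 0.0025% and 15.1% in corn oil/cellulose mice 1 to 4. Both diets thus held mice at a few percent and mice near 15% or more, and the groups overlapped. Hba-a2, which carried nearly all of the alpha counts, ranked 2nd with 87774 UMIs. It took 12.6%, 10.7%, 17.2% and 2.03% of UMIs in fish oil/pectin mice 1 to 4, and 1.37%, 12.8%, 0.0049% and 8.66% in corn oil/cellulose mice 1 to 4. The order of the 8 mice was the same as for Hbb-bs. Hbb-bt, the minor beta gene, ranked 4th with 41105 UMIs and took between 0.926% and 8.14% of UMIs in fish oil/pectin mice and between 0.0012% and 5.68% in corn oil/cellulose mice. Hba-a1 was of another order of size, ranking 591st with 181 UMIs. It had 7, 18, 40 and 9 UMIs in fish oil/pectin mice 1 to 4, and 16, 41, 0 and 50 in corn oil/cellulose mice 1 to 4. The 0 in corn oil/cellulose mouse 3 allows a share of up to 0.0037% of its UMIs. The plot of each gene by mouse shows nearly the same order of mice in the 3 abundant genes, with fish oil/pectin mouse 2 above mouse 1 for Hbb-bt and below it for the other two.

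**Figure D1:**
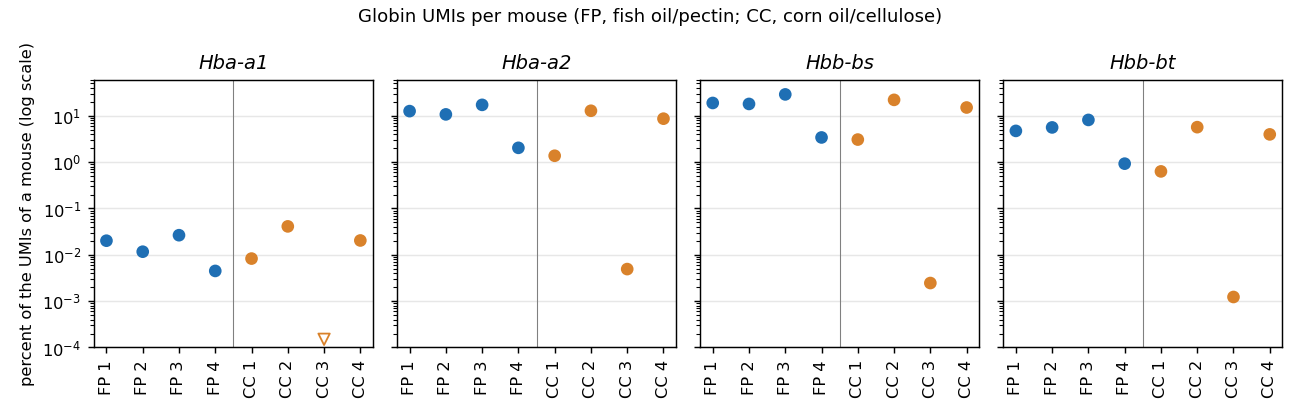
Share of all UMIs of a mouse taken by each globin gene, in percent on a log scale, 1 point per mouse, with fish oil/pectin (FP, blue) left of corn oil/cellulose (CC, orange); the open triangle marks a value of 0. Hba-a2, Hbb-bs and Hbb-bt put the mice in nearly the same order, and the mouse CC 3 far below the rest, while Hba-a1 stayed below 0.05% in every mouse.

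Globin UMIs were concentrated in few barcodes. The 1214 barcodes in which at least 0.25 of UMIs were globin held 99.5% of all globin UMIs, and the 7374 barcodes below that share held 1435 globin UMIs. No barcode had a globin share between 20.3%, the highest value below the threshold, and 26.8%, the lowest above it, and 1106 barcodes lay at 70% or more. Of the 98 barcodes between 5% and 50%, 77 came from corn oil/cellulose mouse 1, whose barcodes had a median of 26 UMIs. In the barcodes at or above 0.25 the median globin share was 82.4% to 89.6% in the fish oil/pectin mice and 76.5% to 88.2% in corn oil/cellulose mice 1, 2 and 4. Fish oil/pectin mice 1 to 4 had 90, 231, 333 and 33 such barcodes and corn oil/cellulose mice 1 to 4 had 140, 185, 0 and 202. For corn oil/cellulose mouse 3, 0 of 106 barcodes allows a share of up to 2.83%. The highest count of any member in a single barcode was 632 UMIs.

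**Figure D2:**
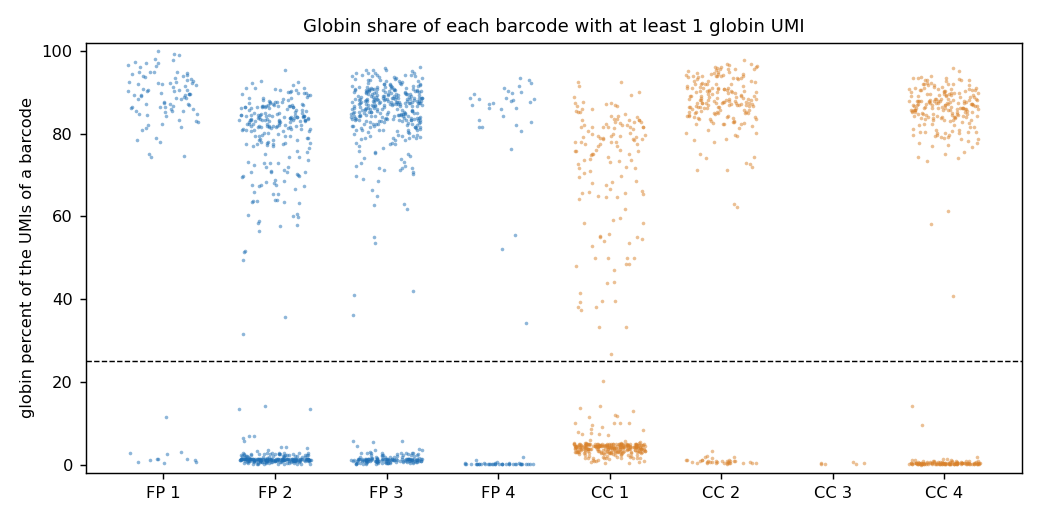
Percent of a barcode's UMIs that were globin, 1 point for each barcode with at least 1 globin UMI, by mouse (FP, fish oil/pectin; CC, corn oil/cellulose); horizontal spread within a mouse is random and the dashed line is the 25% threshold. Points form a cloud above 70% and another near 0 in 7 mice, CC 1 has most of the points in between, and CC 3 has only points near 0.

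Many red cell RNAs lay almost wholly in the globin-rich barcodes. Outside the globins these barcodes held 49221 UMIs, or 5.58% of all non-globin UMIs. Together 13 red cell markers made up 106 per 1000 of them, against 0.0901 per 1000 in the rest. Most of that rate came from Alas2, with 4196 of the 5209 marker UMIs there, and Epb41, with 828. Of the 13 markers 2 had no UMI in these barcodes. Of the 1769 UMIs of Tent5c, a poly(A) polymerase gene, 99.5% lay in them, and so did 99.5% of the 4219 UMIs of Alas2, the first enzyme of red cell haem synthesis. Slc4a1, the anion exchanger of the red cell membrane, had 70 of its 71 UMIs there. Ube2l6 (98.2%), Bpgm (97.5%), Fam220a (97.5%), Epb41 (97.1%), Apol11b (96.7%) and Cdr2 (95.9%) were also among the 10 genes that lay most in these barcodes, by the ratio of rates per non-globin UMI. Across 5797 genes with at least 30 UMIs the median share was 1.35%, and 78 genes had over 50% of their UMIs in globin-rich barcodes. Markers of other cells were less frequent there than elsewhere in each of 15 lists: the 11 epithelial markers made up 3.62 per 1000 non-globin UMIs in globin-rich barcodes and 11.6 in the rest, and the 10 goblet cell markers 5.32 and 14.2. Smooth muscle markers came closest to their level elsewhere, at 1.46 and 1.58 per 1000. Platelet, T cell, nerve and mesothelial markers, which had 9, 24, 38 and 64 UMIs in all libraries, were at 0 UMIs in the globin-rich barcodes.

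The lists of red cell genes, chosen with earlier results of these data known, split by role in where their UMIs lay. Of 14 reticulocyte genes with at least 30 UMIs, 12 had over 50% of their UMIs in globin-rich barcodes, with a median of 90.7%. Among these were Gpx1, a peroxide-removing enzyme, with 587 of 654 UMIs, and Cat, catalase, with 283 of 309. Epb41 and Slc4a1 of the red cell membrane list did so as well. Of 9 haem synthesis genes 4 did, namely Alas2, Fech, which inserts the iron (95.7%), and the mitochondrial carriers Slc25a37 (94.5%) and Slc25a39 (90.2%). The other 5 lay mostly elsewhere, among them Alas1, the housekeeping form of the first enzyme (2 of 63), Ppox (5 of 107) and Tmem14c (1 of 97). None of 3 erythroid transcription factor genes did, although Lmo2 had 27 of 56 UMIs there. Of 3 genes for the handling of haemoglobin and its products, Blvrb, a biliverdin reductase, did with 35 of 64, and Lrp1 (2 of 107) and Slc40a1, the iron exporter (2 of 154), did not. Ahsp, the chaperone of free alpha chains, was listed but was not among the genes measured.

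The other 9 globin-family genes measured, of 12 listed, had 73 UMIs in all. The embryonic genes Hba-x, Hbb-y, Hbb-bh1 and Hbb-bh2 had 5, 2, 5 and 1 UMIs, all of them in barcodes below 0.25 globin share. The theta-type genes Hbq1a and Hbq1b, which sit beside the alpha genes, had 14 of 15 and 7 of 7 UMIs in the globin-rich barcodes. Cytoglobin (Cygb), a globin of fibroblast-type cells, had 28 of 29 UMIs outside them, neuroglobin (Ngb) 8 of 8 and myoglobin (Mb) its single UMI. At these counts no difference between mice can be seen.

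Beta RNA outnumbered alpha RNA in UMIs in every mouse with globin-rich barcodes. In those barcodes the ratio of alpha to beta UMIs was 0.535, 0.455, 0.465 and 0.469 in fish oil/pectin mice 1 to 4, and 0.372, 0.464 and 0.455 in corn oil/cellulose mice 1, 2 and 4. Of these 7 mice, 5 lay between 0.455 and 0.469, while fish oil/pectin mouse 1 lay above and corn oil/cellulose mouse 1 below. UMI counts through probes are not levels per transcript, so the ratio does not give the ratio of RNA molecules. Across barcodes with at least 50 globin UMIs the alpha share of globin UMIs varied more than counting alone gives. Its SD was 5.17 to 8.90 points over the 7 mice, against 2.42 to 4.46 points from binomial counting.

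Nearly all alpha UMIs were assigned to Hba-a2, and over all mice 0.206% to Hba-a1. Hba-a1 made up 0.159%, 0.109%, 0.154% and 0.220% of alpha UMIs in fish oil/pectin mice 1 to 4, and 0.600%, 0.319% and 0.235% in corn oil/cellulose mice 1, 2 and 4. The 2 diets did not overlap in this share, which rests on 7 to 50 Hba-a1 UMIs per mouse in a pair that differs at 1 coding base. Of the beta UMIs in globin-rich barcodes, Hbb-bt made up 19.99%, 23.8%, 21.97% and 21.5% in fish oil/pectin mice 1 to 4, and 17.4%, 20.5% and 20.8% in corn oil/cellulose mice 1, 2 and 4. Mouse by mouse the 95% Wilson intervals, which cover counting error only, ran from 19.1% to 20.9% in fish oil/pectin mouse 1 and from 16.5% to 18.3% in corn oil/cellulose mouse 1, the lowest mouse of each diet. The groups overlapped.

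The Hbb-bt share changed with how much globin a barcode held. Barcodes at or above 0.25 were split at the median alpha UMIs of their mouse, a split chosen after the values had been seen that uses no beta count. In fish oil/pectin mice 1 to 4 Hbb-bt made up 22.8%, 25.3%, 24.04% and 22.1% of beta UMIs in the upper set and 12.5%, 19.3%, 16.04% and 20.6% in the lower set. In corn oil/cellulose mice 1, 2 and 4 it made up 19.4%, 23.4% and 22.3% in the upper set and 6.81%, 13.2% and 18.5% in the lower set. The upper set was higher in 7 of 7 mice, by 7.501 points ± 3.95 (SD, n = 7 mice; two-sided exact sign-flip p = 0.0156, the smallest that 7 mice can give, and 0.0234 adjusted over 3 such tests). The adjustment does not cover the choice of the split. The range over mice was 1.45 to 12.5 points. The smallest value was that of fish oil/pectin mouse 4, which had 33 such barcodes, all of at least 348 UMIs.

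In finer steps the share was higher in each step than in the one before. In fish oil/pectin mouse 3 it was 10.4% in barcodes with 5 to below 20 alpha UMIs, 12.3% from 20 to below 40, 19.4% from 40 to below 80, 24.1% from 80 to below 160 and 24.8% from 160 upwards, over 16, 63, 107, 125 and 22 barcodes. In corn oil/cellulose mouse 2 it was 9.60%, 17.1% and 23.9% in the 3 middle steps, over 45, 72 and 62 barcodes. Per barcode, the SD of the Hbb-bt share was 5.59 to 10.7 points over the 7 mice, against 2.59 to 4.86 points from binomial counting. Depth moved with the split by construction: the median barcode of the upper set had 98 to 469 UMIs and that of the lower set 34 to 411.5. Splitting by Hbb-bs or by non-globin UMIs gave mean differences of 7.68 and 7.59 points, and barcodes of at least 100 UMIs alone gave 5.99 points. With the split by non-globin UMIs fish oil/pectin mouse 4 did not follow the other 6 mice (exact sign-flip p = 0.0312).

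Other RNAs moved with the same split. Per 1000 non-globin UMIs, Bpgm, the enzyme that makes the regulator of oxygen binding in red cells, was higher in the upper set in 7 of 7 mice, at 27.8 to 55.6 against 10.6 to 31.998 in the lower set. Tent5c was also higher in 7 of 7, at 34.3 to 62.5 against 12.9 to 42.4. Alas2, Fech and Gpx1 were higher in 6 of 7 mice, Ube2l6 in 5, and Epb41 in 4. Gpx1 counts were small, at 3 and 1 UMIs in the upper and lower set of corn oil/cellulose mouse 1. These numbers of mice depended on the split. Split by non-globin UMIs, Gpx1 was higher in the upper set in 7 of 7 mice and Bpgm in 6. Tent5c and Fech were higher in 5, Alas2 and Epb41 in 4, and Ube2l6 in 1. With the split by alpha UMIs, mitochondrially encoded RNA was lower in the upper set in 6 of the 7 mice, with fish oil/pectin mouse 4 as the exception. It stood at 48.8 to 183 per 1000 non-globin UMIs against 54.0 to 323 in the lower set. The part of depth and of mitochondrially encoded RNA in the Hbb-bt difference was not tested.

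The alpha to beta ratio moved with the content of a barcode too, with a direction that depended on the split. With globin-rich barcodes split at the median non-globin UMIs of their mouse, again a split chosen after the values had been seen, the ratio in the upper set was 0.487, 0.434, 0.439 and 0.458 in fish oil/pectin mice 1 to 4, and 0.363, 0.435 and 0.426 in corn oil/cellulose mice 1, 2 and 4. In the lower set it was 0.639, 0.504, 0.527 and 0.481 in the fish oil/pectin mice, and 0.404, 0.532 and 0.502 in the corn oil/cellulose mice. The ratio was lower in the upper set in 7 of 7 mice, by a mean log2 difference of -0.23 ± 0.10 (SD, n = 7; two-sided exact sign-flip p = 0.0156, the smallest possible, adjusted p = 0.0234). The adjustment does not cover the choice of this split either. Splits by a count that is part of the ratio went both ways. By alpha UMIs, the split used for Hbb-bt, the ratio was higher in the upper set in 6 of 7 mice, with fish oil/pectin mouse 1 lower by a log2 difference of -0.17, and the mean was 0.061 (exact sign-flip p = 0.297). By beta UMIs the mean was -0.335 (exact sign-flip p = 0.0156). For the 2 splits first described, neither within-mouse difference was shown to differ between diets: the mean Hbb-bt step was 6.48 points in fish oil/pectin mice and 8.86 points in corn oil/cellulose mice (exact permutation p = 0.571), and the mean log2 ratio step was -0.24 and -0.23 (exact permutation p = 0.914).

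**Figure D3:**
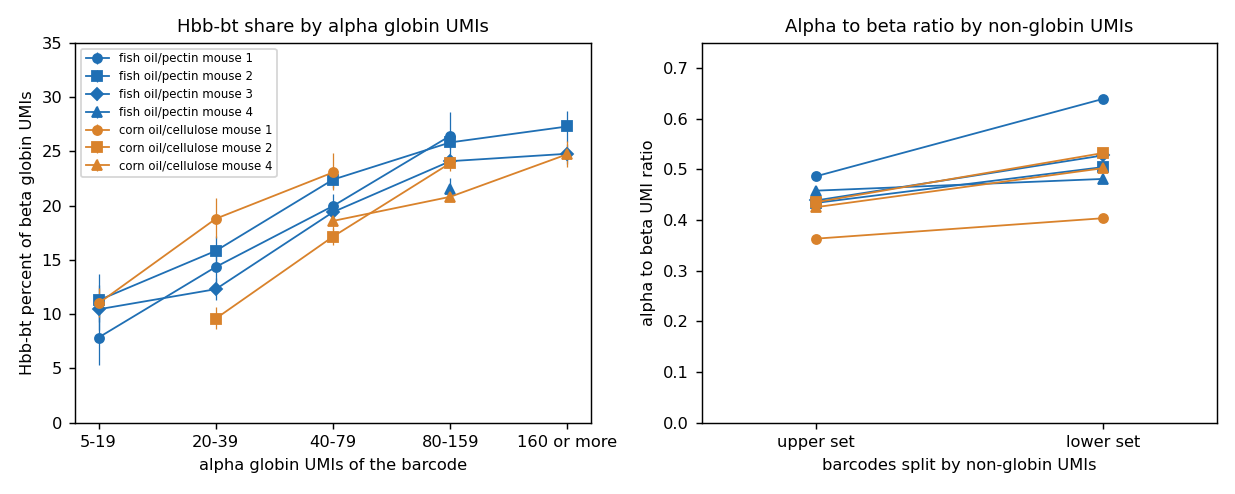
Left, Hbb-bt as percent of beta globin UMIs in globin-rich barcodes grouped by their alpha globin UMIs, 1 line per mouse, with 95% Wilson intervals and groups under 5 barcodes left out; right, the alpha to beta UMI ratio in the upper and the lower set of each mouse's globin-rich barcodes by non-globin UMIs. Within each mouse with several points the Hbb-bt share rises from left to right, and in each of the 7 mice the ratio is lower in the upper set.

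Below 0.25 globin share, globin RNA was sparse: 6512 of 7374 barcodes (88.3%) had no globin UMI at all. Fish oil/pectin mice 1 to 4 had 14.03, 38.96, 41.05 and 7.72 globin UMIs per 10000 UMIs in these barcodes, and corn oil/cellulose mice 1 to 4 had 18.5, 8.94, 0.860 and 17.6. Fish oil/pectin mice 2 and 3 were highest, the other fish oil/pectin mice lay within the range of the corn oil/cellulose mice, and corn oil/cellulose mouse 3 was lowest. Among barcodes of at least 50 UMIs, the share with a globin UMI was 6.29%, 30.3%, 33.6% and 16.6% in fish oil/pectin mice and 5.03%, 13.7%, 5.66% and 38.2% in corn oil/cellulose mice. The median depths of these barcodes ran from 75 to 542 UMIs. Thinned to 50 UMIs per barcode, the shares were 3.45%, 18.2%, 18.99% and 1.97% in fish oil/pectin mice and 3.55%, 5.39%, 0.700% and 7.57% in corn oil/cellulose mice.

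The globin RNA of these barcodes was not shown to differ from that of the globin-rich ones in its alpha to beta balance. The log2 ratio differed by -0.028 ± 0.28 (SD, n = 7 mice), higher in 3 mice and lower in 4 (two-sided exact sign-flip p = 0.8125, adjusted p = 0.8125). The Hbb-bt share of beta UMIs was 15%, 16.4%, 18.8% and 13.6% in fish oil/pectin mice 1 to 4, and 8.09%, 20% and 14.5% in corn oil/cellulose mice 1, 2 and 4. In each of these 7 mice it lay below the share in the same mouse's globin-rich barcodes, a pattern noticed after the values had been seen and based on 3 to 41 Hbb-bt UMIs per mouse. Hba-a1 had 1 UMI in these barcodes, in fish oil/pectin mouse 2.

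The level outside the globin-rich barcodes was set beside the amount within them. Over the 8 mice, globin UMIs in globin-rich barcodes as percent of all UMIs had a Pearson r of 0.65 with globin UMIs per 10000 in the rest (exact permutation p = 0.0821) and a Spearman rho of 0.50 (exact permutation p = 0.216), a single relation chosen after the data had been seen. Without corn oil/cellulose mice 3 and 1, the 2 farthest from the median, r was 0.60 (exact permutation p = 0.194, n = 6). The relation did not pass in either set, and pools of 4 mice are too small for a value of their own.

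Droplets shared by libraries of an inferred pool were looked at as well. The 46 barcodes below 0.25 whose droplet also gave a globin-rich barcode of another mouse had 28.3 globin UMIs per 10000 (exact 95% Poisson interval 17.3 to 43.6, 20 UMIs). The 272 that shared a droplet with barcodes below 0.25 alone had 12.1 (9.496 to 15.2), and the 7056 that shared none had 17.5 (16.6 to 18.5). The intervals cover counting error only, and the groups differ in their mix of mice.

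Globin UMIs of barcodes below 0.25 were found in every cluster of cells that had such barcodes, which the red cell-like cluster did not. The 1669 barcodes with at least 100 non-globin UMIs were clustered without the globin genes into 10 clusters, of which 6 could be named by markers, and the names are rebuilt here from the counts. A red cell-like cluster of 35 barcodes, led by Tent5c, Alas2 and Cdr2, held 35 of the 40 clustered barcodes at or above 0.25, with 7906 globin UMIs per 10000. Among barcodes below 0.25, the goblet-like cluster (254 barcodes, led by Fer1l6 with Muc2 and Bcas1) had 12.4 globin UMIs per 10000, with an exact 95% Poisson interval of 10.9 to 14.0. The fibroblast-like cluster (206 barcodes, led by Pi16) had 11.2 (8.33 to 14.8) and the smooth muscle-like cluster (21 barcodes) 11.1 (4.06 to 24.1). The macrophage-like cluster, of a cell type known to take up old red cells, had 4.70 (1.72 to 10.2) over 47 barcodes, and the adipocyte-like cluster 3.38 (0.697 to 9.88) over 34. The 4 unnamed clusters ranged from 6.82 to 20.5. These values mix mice with different background: within the goblet-like cluster the 76 barcodes of fish oil/pectin mouse 4 had 14.4 per 10000, against 16.8 in the 96 of corn oil/cellulose mouse 4 and 0.246 in the 33 of corn oil/cellulose mouse 3. The threshold removes the barcodes with most globin from each cluster by rule: with its 1 barcode at or above 0.25 let in, the fibroblast-like cluster had 81.5 per 10000.

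**Figure D4:**
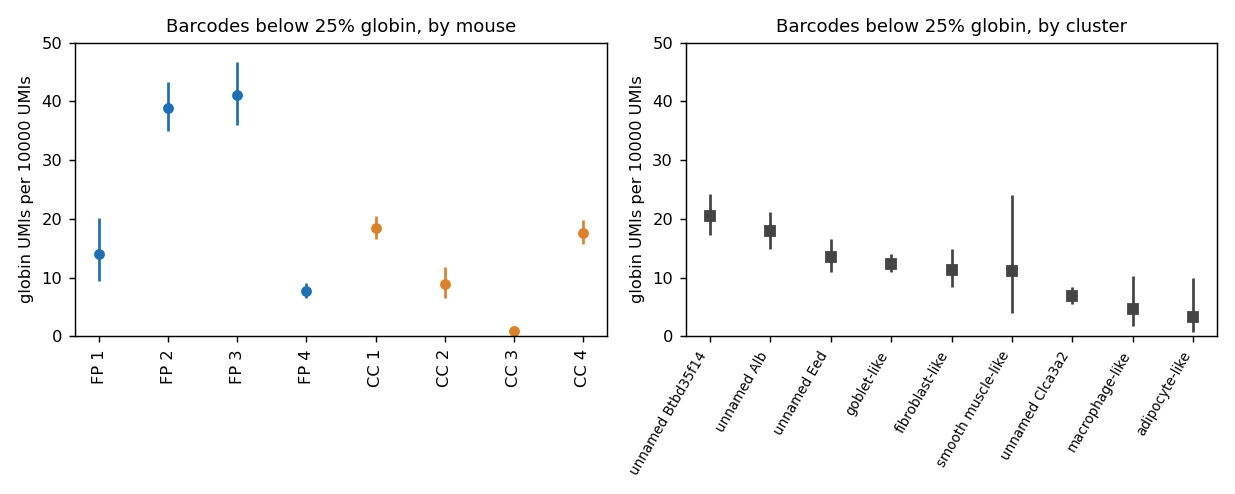
Globin UMIs per 10000 UMIs in barcodes below the 25% globin threshold, by mouse (left; FP, fish oil/pectin, CC, corn oil/cellulose) and by cluster over all mice (right; unnamed clusters carry their leading gene), with exact 95% Poisson intervals that cover counting error only. FP 2 and FP 3 stand near 40, CC 3 stands near 1, and all clusters with such barcodes lie between 3.38 and 20.5.

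Between diets, which the study set out to compare, no globin measure passed its test. Globins took 32.8% ± 19.8 of UMIs in fish oil/pectin mice and 18.4% ± 19.1 in corn oil/cellulose mice (SD, n = 4 each), a difference of 14.5 points that is smaller than either SD (two-sided exact permutation p = 0.286, 0.343 adjusted over 6 measures). The difference was 8.35 points without corn oil/cellulose mouse 3 (exact permutation p = 0.571) and 7.30 without fish oil/pectin mouse 3 (exact permutation p = 0.514), and it lay between 7.30 and 23.3 points when any 1 mouse was left out. In a whole roll, more blood cells and more RNA per blood cell cannot be told apart in this share. Within pool 1 the difference was 21.02 points, or 13.4 without corn oil/cellulose mouse 3, and within pool 2 it was 3.94. Globin-rich barcodes made up 27.3% ± 13.2 of barcodes in fish oil/pectin mice and 20.6% ± 22.3 in corn oil/cellulose mice (exact permutation p = 0.629, adjusted p = 0.629). That difference was 16.4 points in pool 1, or 9.04 without corn oil/cellulose mouse 3, and -12.3 points in pool 2. Over both pools it was 1.48 points with fish oil/pectin mouse 3 left out, 0.730 with corn oil/cellulose mouse 1 left out and -0.17 with corn oil/cellulose mouse 3 left out. With 4 mice on each side p cannot go below 0.0286.

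The minimum number of UMIs per barcode touches these shares, since 851 of the 1214 globin-rich barcodes (70.1%) had fewer than the 348 UMIs of the highest minimum. At a common minimum of 348 UMIs, chosen after the data had been seen, 2, 70, 103 and 33 globin-rich barcodes were left in fish oil/pectin mice 1 to 4, out of 4, 94, 121 and 292 barcodes. In corn oil/cellulose mice 1 to 4 there were 4, 38, 0 and 113, out of 12, 61, 99 and 272. Corn oil/cellulose mouse 3 thus still had none where 38 of 61 and 113 of 272 barcodes were globin-rich in 2 other mice of its diet. The diet difference in the share of globin-rich barcodes was 20.9 points at this minimum (exact permutation p = 0.371) and 16.01 points at a minimum of 100 UMIs (exact permutation p = 0.257), against 6.69 points with no minimum set. All of these include corn oil/cellulose mouse 3, and those at a set minimum were not computed without it. At 348 UMIs its share was 0%, against 33.3%, 62.3% and 41.5% in corn oil/cellulose mice 1, 2 and 4. In fish oil/pectin mice 1 to 4 it was 50%, 74.5%, 85.1% and 11.3%.

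The background share below 0.25 was 0.254% ± 0.170 of UMIs in fish oil/pectin mice and 0.115% ± 0.083 in corn oil/cellulose mice (SD, n = 4 each; exact permutation p = 0.257, adjusted p = 0.343), with differences of 0.046 points in pool 1, or 0.0033 without corn oil/cellulose mouse 3, and 0.116 in pool 2. The difference of 0.140 points was 0.0876 with fish oil/pectin mouse 3 left out, 0.104 with corn oil/cellulose mouse 3 left out and 0.027 at the common minimum of 348 UMIs. The log2 alpha to beta ratio averaged -1.06 ± 0.11 (n = 4) in fish oil/pectin mice and -1.22 ± 0.17 (n = 3) in corn oil/cellulose mice with at least 50 globin UMIs (exact permutation p = 0.229, adjusted p = 0.343), with a difference of 0.36 in pool 1 and 0.024 in pool 2. Hbb-bt made up 21.8% ± 1.56 of all beta UMIs in fish oil/pectin mice (n = 4) and 19.5% ± 2.09 in corn oil/cellulose mice (n = 3; exact permutation p = 0.171, adjusted p = 0.343), higher by 1.21 points in pool 1 and 1.54 in pool 2. Hba-a2 made up 99.84% ± 0.046 of alpha UMIs in fish oil/pectin mice (n = 4) and 99.62% ± 0.191 in corn oil/cellulose mice (n = 3; exact permutation p = 0.0571, the smallest possible with 4 mice and 3, adjusted p = 0.343). That difference was 0.300 points in pool 1 and 0.074 in pool 2, and with 3 mice in a group none of the 3 ratio measures could reach 0.05. Without corn oil/cellulose mouse 1 all 3 diet differences were smaller: 0.062 against 0.16 for the log2 ratio, 1.11 against 2.31 points for Hbb-bt and 0.116 against 0.224 points for Hba-a2. In barcodes of at least 100 UMIs the Hbb-bt difference was 1.06 points.

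Fitted with edgeR on the summed counts of each mouse, none of the 4 members passed an adjusted p of 0.05, and neither did any of the 4471 genes tested (0%). At an unadjusted p under 0.05 the background was 107 genes (2.39%) in either direction and 52 (1.16%) higher in fish oil/pectin mice, and no member was among them. DESeq2 called 0 genes as well. The log2 fold change (fish oil/pectin over corn oil/cellulose) was 1.88 with an SE of 2.04 for Hba-a2, 1.79 with an SE of 2.18 for Hbb-bs, 1.94 with an SE of 1.89 for Hbb-bt and 0.74 with an SE of 1.05 for Hba-a1 (edgeR adjusted p = 1.00 for each). All 4 lay above 0 with a median of 1.83, against a median of -0.026 over all genes tested. Without corn oil/cellulose mouse 3 the values were 1.43, 1.34, 1.49 and 0.32 for Hba-a2, Hbb-bs, Hbb-bt and Hba-a1, and without fish oil/pectin mouse 3 they were 0.62, 0.49, 0.66 and -0.70. The differences of mean log2 levels within pool 1, the pool of corn oil/cellulose mouse 3, were 4.21, 4.37 and 3.95 for Hba-a2, Hbb-bs and Hbb-bt. Without that mouse they were 1.02, 0.63 and 0.75, and within pool 2 they were 0.061, 0.0080 and 0.14. Hba-a1 stood at 0.85 in pool 1, or -0.44 without that mouse, and -0.40 in pool 2.

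In the sums of barcodes below 0.25, 3 members had enough counts to test. The edgeR log2 fold change was 1.39 with an SE of 0.76 for Hba-a2, 1.48 with an SE of 0.94 for Hbb-bs and 1.96 with an SE of 0.84 for Hbb-bt, each with an edgeR adjusted p of 1.00. Of 3481 genes tested none passed with edgeR (0%) or DESeq2, 88 (2.53%) had an unadjusted p under 0.05 and 37 (1.06%) did so on the higher side, Hbb-bt being 1 of them. Within pools these differences were 0.11 and 0.39 for Hba-a2, 0.48 and 0.53 for Hbb-bs, and 0.13 and 0.72 for Hbb-bt, and in pool 1 without corn oil/cellulose mouse 3 they were -0.69, -0.89 and -0.55. The edgeR values were 1.03, 1.07 and 1.64 for Hba-a2, Hbb-bs and Hbb-bt without corn oil/cellulose mouse 3, and 0.72, 0.76 and 1.13 without fish oil/pectin mouse 3.

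The red cell lists lay on the same side as the globins, and none of their genes passed. All 14 reticulocyte genes tested had a log2 fold change above 0, with a median of 1.59, and so had the 3 red cell membrane genes, with a median of 1.85. Of 7 haem synthesis genes 5 lay above 0 (median 1.60), among them Fech at 1.84, Alas2 at 1.84, Slc25a37 at 1.84 and Slc25a39 at 1.60, whereas Ppox stood at -0.50 and Alas1 at -0.045. The 3 transcription factor genes had a median of 0.75 and the 3 haemoglobin-handling genes 0.21. Over all 4471 genes, 2131 lay above 0. Without corn oil/cellulose mouse 3 the medians were 1.21 for the reticulocyte list (14 of 14 above 0), 1.29 for the membrane list, 1.39 for haem synthesis and 0.53 for the transcription factors, while that of haemoglobin handling, then over 4 genes, was -0.38. These genes share barcodes with the globins, and their fold changes come from the same 8 mice. List medians were not taken within pools or without fish oil/pectin mouse 3, whose removal lowered the members' values most.

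The genes whose level most resembled that of the globins over the 8 mice, as log2 of UMIs per 1000000 non-globin UMIs plus 10, were largely those that shared their barcodes. Tent5c had a Pearson r of 0.994, and its UMIs numbered 72, 341, 496 and 88 in fish oil/pectin mice 1 to 4 and 92, 221, 0 and 459 in corn oil/cellulose mice 1 to 4. Psme3, a proteasome activator subunit, followed at 0.990 and Alas2 at 0.988, with 172, 768, 1295 and 183 UMIs in fish oil/pectin mice and 166, 614, 1 and 1020 in corn oil/cellulose mice. Ptp4a3 (0.983), Ube2o (0.981), Epb41 (0.975), Bpgm (0.970), Fam220a (0.970) and Ube2h (0.955) were also among the 10 most alike, and 70.1% to 99.5% of the UMIs of those named lay in globin-rich barcodes. Without corn oil/cellulose mouse 3 the values of those named lay between 0.843 (Ube2h) and 0.998 (Alas2) over 7 mice. These values are a description of 8 libraries that differ in globin share, and carry no test.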

How the data were processed

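The authors deposited 1 matrix of unnormalized UMI counts per mouse, genes by cell barcodes. Per the file headers they made them with Cell Ranger 8.0.0, and the builds named are mm10 and GRCm39, per the submitters' processing notes. Whether barcodes were filtered further is not given in the sources used here, and no doublets were removed here.

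The members, gene lists, threshold of 0.25 and named genes were chosen with earlier results of these data known. The named genes are the 4 members, the 10 genes most like them over mice and over barcodes, and up to 4 of the most abundant genes of each list; other list genes are named after their values were seen, and some genes that these rules pick are not reported here. Counts were summed per mouse, the unit of replication, with groups from the sample labels. Sums were compared with the edgeR 4.0.16 quasi-likelihood test in R 4.3.3 (filterByExpr, minimum count 5, TMM factors, Benjamini-Hochberg adjustment), and the fit was tested on simulated data. Two-sided exact permutation tests served for ratios and shares, with 70 assignments (35 for ratios, which need 50 globin UMIs per mouse) and exact sign-flip tests within mice (20 globin UMIs per side). Barcodes with at least 100 non-globin UMIs were scaled to 10000, log transformed and clustered with scanpy 1.11.5 without globin genes (2000 variable genes, 20 components, 15 neighbours, Leiden resolution 0.5). A cluster was named where at least 3 markers were raised, each by a log2 fold of 1 and 10 UMIs, and 1 stood among its 10 leading genes. Alternatives were other scalings, filters, DESeq2 1.42.0, the inferred pool or the mouse number in the fit, other thresholds and leaving out each mouse.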

Additional observations from a re-analysis of the deposited data

How the results depend on the processing

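Over 111 alternative values of the members' log2 fold changes, none passed an adjusted p of 0.05 and 1 reversed: Hba-a1 in all barcodes ran from -0.70 to 1.53 when each mouse was left out, below 0 without fish oil/pectin mouse 3. DESeq2 also called 0 genes in both fits (139 and 94 at an unadjusted p under 0.05). Without a filter on low counts edgeR called 4 genes in all barcodes (Atf3, Alb, Reg3b and Scd1) and 5 below 0.25 (Maff as well), and Reg3b alone without fish oil/pectin mouse 4, so leaving out each mouse gave 0 to 1 in both fits; these genes were named after their values were seen.

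The difference in the share of globin-rich barcodes ran from -0.17 to 13.6 points when each mouse was left out, below 0 without corn oil/cellulose mouse 3. The median background over barcodes of at least 50 UMIs was 0 in every mouse, since at most 38.2% of them had a globin UMI, so the difference of 0 by that measure shows nothing. The background difference was 0.316 points at a threshold of 0.5 and 0.277 without mitochondrially encoded genes. With corn oil/cellulose mouse 3 and its 7 globin UMIs let in, the log2 alpha to beta difference was -0.25 and the Hbb-bt difference -1.16 points. That mouse had 4 alpha and 3 beta UMIs, and 1 of the latter was Hbb-bt. In barcodes below 0.25, without that mouse, the Hba-a2 difference was -0.248 points. It rests on 1 Hba-a1 UMI, in fish oil/pectin mouse 2. The difference in log2 ratio between barcodes below and above the threshold was 0.022 at a threshold of 0.5 and ran from -0.10 to 0.020 when each mouse was left out. The cause of these changes was not tested. The ratio step between upper and lower sets was 0.061 when split by alpha UMIs, which are part of the ratio. The Hbb-bt step stayed between 5.99 and 8.51 points and the ratio step between -0.335 and -0.21 under the other alternatives, and without any 1 mouse both had an exact sign-flip p of 0.0312, the smallest that 6 mice can give.

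The labels do not say that equal mouse numbers pair the mice. Correlations of same-numbered mice, over deviations from their diet's mean levels, were 0.20, -0.20, -0.094 and 0.28. None matched its own number best, a description without a test that cannot settle whether the numbers mark pairs. With the mouse number as a replicate block, edgeR called 0 genes in both fits (131 and 125 unadjusted). Paired differences in the replicate block were 14.5 points for the globin share, 6.69 for globin-rich barcodes, 0.140 for background, 0.18 for the log2 ratio, 0.222 for Hba-a2 and 2.25 for Hbb-bt. Hba-a1 rests on 0 to 50 UMIs per mouse.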
